A study of Mus musculus with 3 samples.

Results

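The genes described here are the chaperones of the endoplasmic reticulum (ER), the cytosol and the mitochondrion, together with the sensors, transcription factors and targets of the unfolded protein response. They were chosen by name, as the 42 genes of a list with these roles. This list and the further lists below were chosen with earlier results of these data known. Of the 42 genes, 42 were among the 17583 genes of the deposited table. They were measured in RNA bound to endothelial ribosomes of the hearts of 3 mice of the genotype Cdh5-CreERT2;Rpl22tm1.1Psam (EC-RiboTag). In these mice a Cre recombinase under control of the endothelial Cdh5 gene, which has to be induced, switches the ribosomal protein RPL22 to a form with an HA tag. Ribosomes were pulled down from homogenized hearts with beads against the tag and their RNA was sequenced. All 3 libraries form a single group, and no library of input RNA, of untagged mice or of another condition was analysed here, so that no difference between conditions could be tested. The sample labels place the hearts at day 7 after coronary ligation, which the methods section on RiboTag does not mention. The study uses RZ for the remote zone of the infarcted heart and elsewhere describes endothelial ribosome-bound RNA from zones of such hearts at day 7, but the labels do not say whether Rz in the sample titles has that meaning, so that the zone sequenced here is uncertain. The mice were on a C57BL/6 background, male and female animals were used, and the labels give no age for these 3.

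Proteins that enter the secretory pathway fold in the ER with the help of chaperones of the Hsp70 and Hsp90 families, of lectin chaperones and of protein disulfide isomerases. When unfolded proteins accumulate there, the membrane sensors IRE1, PERK and ATF6 start the unfolded protein response: IRE1 splices the mRNA of XBP1, PERK slows translation and favours the translation of ATF4, and ATF6 is cut to release a transcription factor. ATF6 and XBP1 act on ER stress elements in promoters, ATF4 acts on genes of the integrated stress response (ISR), and heat shock factor HSF1 acts on the chaperones of the cytosol. Endothelial cells make and secrete large amounts of matrix, receptors and clotting factors through this pathway.

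The promoters of the members are shown first. The ER stress elements were described from promoters of genes such as Hspa5, Hsp90b1 and Calr, so that finding them in a list of ER chaperones is partly built into the choice of the list. Windows from 250 bases before to 50 bases after the start of the canonical transcript were read from the GRCm39 genome and searched on both strands. The ER stress element ERSE (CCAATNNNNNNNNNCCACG) was found in 8 members, of 18 genes with it among 17475 searched (0.103%). These 8 genes were the ER chaperones Hspa5, Hsp90b1, Calr, Canx, Creld2 and Dnajc3, the disulfide isomerase Pdia6 and the ubiquitin ligase gene Syvn1. They are printed 5′ to 3′ on the strand that carries the element, with its fixed letters in capitals, and Hsp90b1 held the element at 2 places.
Hspa5 (chr2:34662032-34662060, plus strand): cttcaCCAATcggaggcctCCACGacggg
Hsp90b1 (chr10:86541497-86541525, minus strand): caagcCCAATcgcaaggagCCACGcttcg
Hsp90b1 (chr10:86541392-86541420, plus strand): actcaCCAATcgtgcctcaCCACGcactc
Calr (chr8:85573699-85573727, plus strand): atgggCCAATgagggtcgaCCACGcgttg
Canx (chr11:50216622-50216650, minus strand): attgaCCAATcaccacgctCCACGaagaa
Creld2 (chr15:88703718-88703746, minus strand): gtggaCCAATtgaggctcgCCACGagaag
Dnajc3 (chr14:119175234-119175262, plus strand): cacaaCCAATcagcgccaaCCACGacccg
Pdia6 (chr12:17316487-17316515, plus strand): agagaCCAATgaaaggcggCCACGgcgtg
Syvn1 (chr19:6096557-6096585, plus strand): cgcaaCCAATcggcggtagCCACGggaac

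The related element ERSE-II (ATTGG and CCACG, with 1 base of any kind between them) was found in 4 members, Hyou1, Herpud1, Manf and Dnajb11, of 15 genes with it (0.0858%). In Dnajb11 it lay behind the start, inside the transcript. Hyou1 held ERSE-II at 2 places, of which the one farther from the start overlapped the only match of a member to the unfolded protein response element TGACGTGG, which 0.807% of all genes held.
Hyou1 (chr9:44290652-44290680, minus strand): tggctgcggATTGGgCCACGtcacggttc
Hyou1 (chr9:44290753-44290781, minus strand): cgagaccccATTGGtCCACGtagaagacc
Herpud1 (chr8:95112996-95113024, plus strand): cgggcgctgATTGGgCCACGttggacact
Manf (chr9:106769229-106769257, plus strand): tgcatcctcATTGGtCCACGtgcccagga

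The amino acid response element TGATGNAA, bound by ATF4 in other settings, was found in 3 members, Chac1, Ddit3 and Herpud1, and in 2.7% of all genes. Herpud1 was the single member with both kinds of element. The heat shock element GAANNTTCNNGAA was found in 2 members, Hspd1 and Hspe1, and in 0.515% of all genes. These neighbours are transcribed away from each other on chromosome 1, so that both windows held the same bases.
Chac1 (chr2:119181519-119181548, minus strand): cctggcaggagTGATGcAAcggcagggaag
Ddit3 (chr10:127126350-127126379, minus strand): gggggcggggaTGATGcAAtgtttggcaac
Herpud1 (chr8:95112934-95112963, minus strand): ggggtgcgggcTGATGcAAcccgccgtggt
Hspd1 and Hspe1 (chr1:55127215-55127243, plus strand): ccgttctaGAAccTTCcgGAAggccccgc
A match is a description of the letters, and binding of a factor was not measured.

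Values are read counts scaled by the authors for the size of each library and then rounded, called normalized counts below. The libraries stood for about 7320000, 6754000 and 7566000 reads in mice 1, 2 and 3, so that mouse 2 was the shallowest. The 10 endothelial markers were all listed and had a median level of 711 normalized counts per kilobase of transcript, from 466.9 for Emcn to 825 for Eng. Markers of other cells were present as well. Those of cardiomyocytes had a median of 565 per kilobase (Tnnt2 highest at 1236, Ttn lowest at 78.6), those of fibroblasts 110.3 (Dcn 455, Pdgfra 33.4), those of mural cells 46.0 (Rgs5 135, Myh11 19.8) and those of leukocytes 28.9 (Lyz2 165, Cd79a 2.52). The leukocyte median used the 6 markers whose mean reached 10, and Cd79a was not among them. Plasma cells, which express ER chaperones at very high levels, were represented by 4 listed markers with levels from 4.79 per kilobase for Jchain to 143 for Sdc1, and Mzb1 was not listed. Jchain, the immunoglobulin joining chain, was at 7, 4 and 9 normalized counts. The list summed to 1099, 1025 and 1037, mostly from Sdc1 (427, 445 and 484) and Prdm1 (595, 504 and 451). The share of any of these cells in the levels of the chaperones was not tested. In such bulk libraries fewer cells of a type and less RNA per cell cannot be told apart, nor can the amount of an mRNA and its loading with ribosomes.

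Most chaperone genes were above the typical gene in this ribosome-bound RNA. Of the 42 members, 36 were above the median level per kilobase of all 14384 genes ranked, which 50% of genes were, and 10 were among the first 1000 genes, where 6.95% of genes were. The median was 266 normalized counts per kilobase for the members and 121 for all ranked genes. The members covered a 26.0-fold range, from 788 per kilobase for Hsp90ab1 (rank 103) to 30.3 for Chac1 (rank 11429). By role, the median was highest for the disulfide isomerases (516) and the ER chaperones (388), followed by the mitochondrial chaperonin (259.9), the sensors and transcription factors (245), the ER-associated degradation genes (212), the ISR targets (209) and the cytosolic heat shock proteins (154). The place of the last group depended on the length: over the parts of transcripts without a copy elsewhere in the genome, described below, its median was 287 and that of the chaperonin 425. Along the order of levels, 10 of the 41 pairs of neighbours had the same order in every mouse, among them Hsp90ab1 above Calr, Calr above P4hb and P4hb above Pdia6. For the other 31 the order changed between mice.

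**Figure D1:**
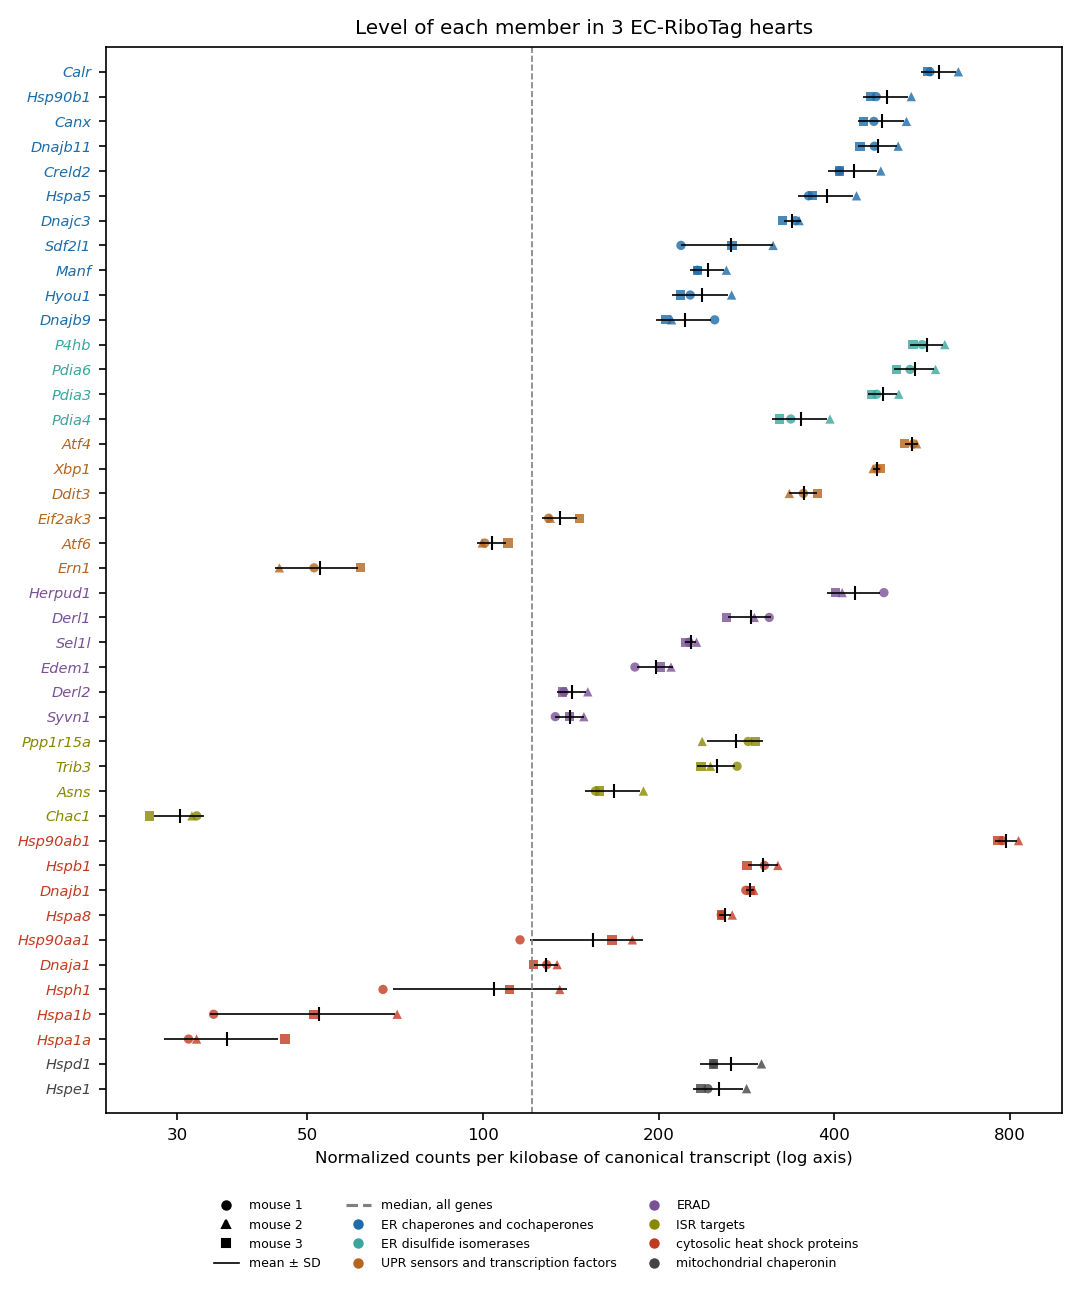
Level of each of the 42 members in normalized counts per kilobase of canonical transcript (horizontal log axis), with 1 symbol per mouse, the mean as a tick and the SD as a line, colored by role. The dashed line is the median of all ranked genes, 121; ER chaperones and disulfide isomerases all lie to its right, and the inducible Hsp70 genes Hspa1a and Hspa1b lie to its left, at 36.5 and 52.4, with over 50% of their read windows copied elsewhere.

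Among the ER chaperones, Calr, the lectin chaperone calreticulin, had the highest level per kilobase, 604 ± 41.7 (SD, n = 3). Hsp90b1, the Hsp90 of the ER (GRP94), followed with 492 ± 43.6, Canx, the membrane-bound lectin chaperone calnexin, with 482 ± 43.3, and Dnajb11, a J-domain partner of BiP, with 475 ± 36.5. Hspa5, which encodes BiP, the ER Hsp70 that also holds the sensors inactive, stood at 388 ± 41.9 and rank 1587. Creld2 (432 ± 41.6), a secreted target of ER stress, and the J-domain gene Dnajc3 (339 ± 11.4) lay around it. Sdf2l1 (267 ± 47.8), a BiP partner, Manf (243 ± 16.2), a secreted ER stress factor, Hyou1 (237 ± 26.1), the nucleotide exchange factor of BiP, and Dnajb9 (222 ± 23.9), a J-domain repressor of IRE1, were the lowest of this group. With the canonical transcript as length, all 11 ER chaperone genes thus lay above the median of all genes. With the joined exons of all transcripts, Creld2 was at 276, Dnajb9 at 133, Hyou1 at 132 and Manf at 46.0 per kilobase. Calr exceeded Canx within each mouse by 0.33 ± 0.03 on the log2 scale per kilobase, and Manf was below Creld2 by 0.83 ± 0.04.

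The disulfide isomerases, which form and rearrange disulfide bonds, were at similar or higher levels. P4hb, which is also a subunit of the collagen prolyl hydroxylase, had 576 ± 37.7 normalized counts per kilobase, Pdia6 had 549 ± 43.3, Pdia3, the partner of calreticulin and calnexin, had 484 ± 27.9, and Pdia4 had 351 ± 37.4. Pdia4 was the lowest of the 4 in every mouse, with P4hb above it by 0.72 ± 0.06 on the log2 scale. The difference between Pdia3 and Pdia6 depended on the length used: the log2 ratio of Pdia3 over Pdia6 was −0.18 ± 0.03 with the transcript inside the deposited gene bounds, and 0.79 with the joined exons of all transcripts.

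The ER chaperones and disulfide isomerases varied together between mice. Hspa5 (chromosome 2, 34661982 to 34667559, plus strand, GRCm39) was at 1312, 1585 and 1332 normalized counts in mice 1, 2 and 3. Hsp90b1 (chromosome 10, 86526073 to 86541373, minus strand) was at 1332, 1530 and 1304. In both genes mouse 2 was highest and the other mice were close to each other. The same order was seen for Canx at 1766, 2008 and 1696, for Hyou1 at 1004, 1182 and 965, and for Pdia4 at 808, 943 and 773. Sdf2l1 was furthest apart, with 242, 348 and 296. In all, 14 of these 15 genes were highest in mouse 2, as were 32.2% of the 9358 genes whose mean reached 200, and 10 of the 15 exceeded the next mouse by more than 10%, as did 9.28% of all genes. The exception was Dnajb9, which was highest in mouse 1 with 614, 518 and 507. Of all 38 members with a mean of at least 200, 28 were highest in mouse 2 and 4 in mouse 1, where 38.1% of all genes were, and 20 were lowest in mouse 3, where 39% of all genes were. The median difference of mouse 2 from the mean of the other mice was 0.18 on the log2 scale for the 15 genes and 0.00 for all genes. For Hspa5, whose difference was 0.26, the coefficient of variation between mice was 10.8%, and counting error alone would give 2.66%.

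Of the 12 members with ERSE or ERSE-II, 11 were highest in mouse 2 (32.2% of all genes) and 8 by more than 10% (9.28% of all genes), with a median log2 difference of 0.18. For the members without either element the median was 0.10, and Sdf2l1, Pdia3, Pdia4 and P4hb, in which neither was found, were also highest in mouse 2. Herpud1 was the exception, at 949, 805 and 785. These 12 genes overlap with the 15 above in all but Herpud1 and Syvn1, so that both counts describe much the same genes. Several measures moved with this order. Mouse 2 had the shallowest library. The share of genes that were highest in mouse 2 was 43.3% among those with transcripts of at most 2100 bases and 21.1% among those of at least 4898 bases. It was 40.4% among genes at 319.6 or more normalized counts per kilobase and 27.7% among those at 115.4 or less. Some other folding machines were also higher in mouse 2: 7 of the 8 subunit genes of the cytosolic chaperonin TRiC, with a median of 0.14, and Hspd1 of the mitochondrion with 0.27. Of 14 further ER folding genes with a mean of at least 200, 7 were highest in mouse 2, 0 of them by more than 10%, and the list median was 0.10. Further ER-associated degradation genes were highest there in 4 of 13 (median 0.02) and further mitochondrial genes in 2 of 6 (median 0.006). The part of depth, transcript length and level in the order of the ER chaperones was not tested. After a correction for the duplicate reads that the authors removed, 13 of the 15 genes were highest in mouse 2 and the median was 0.21.

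**Figure D2:**
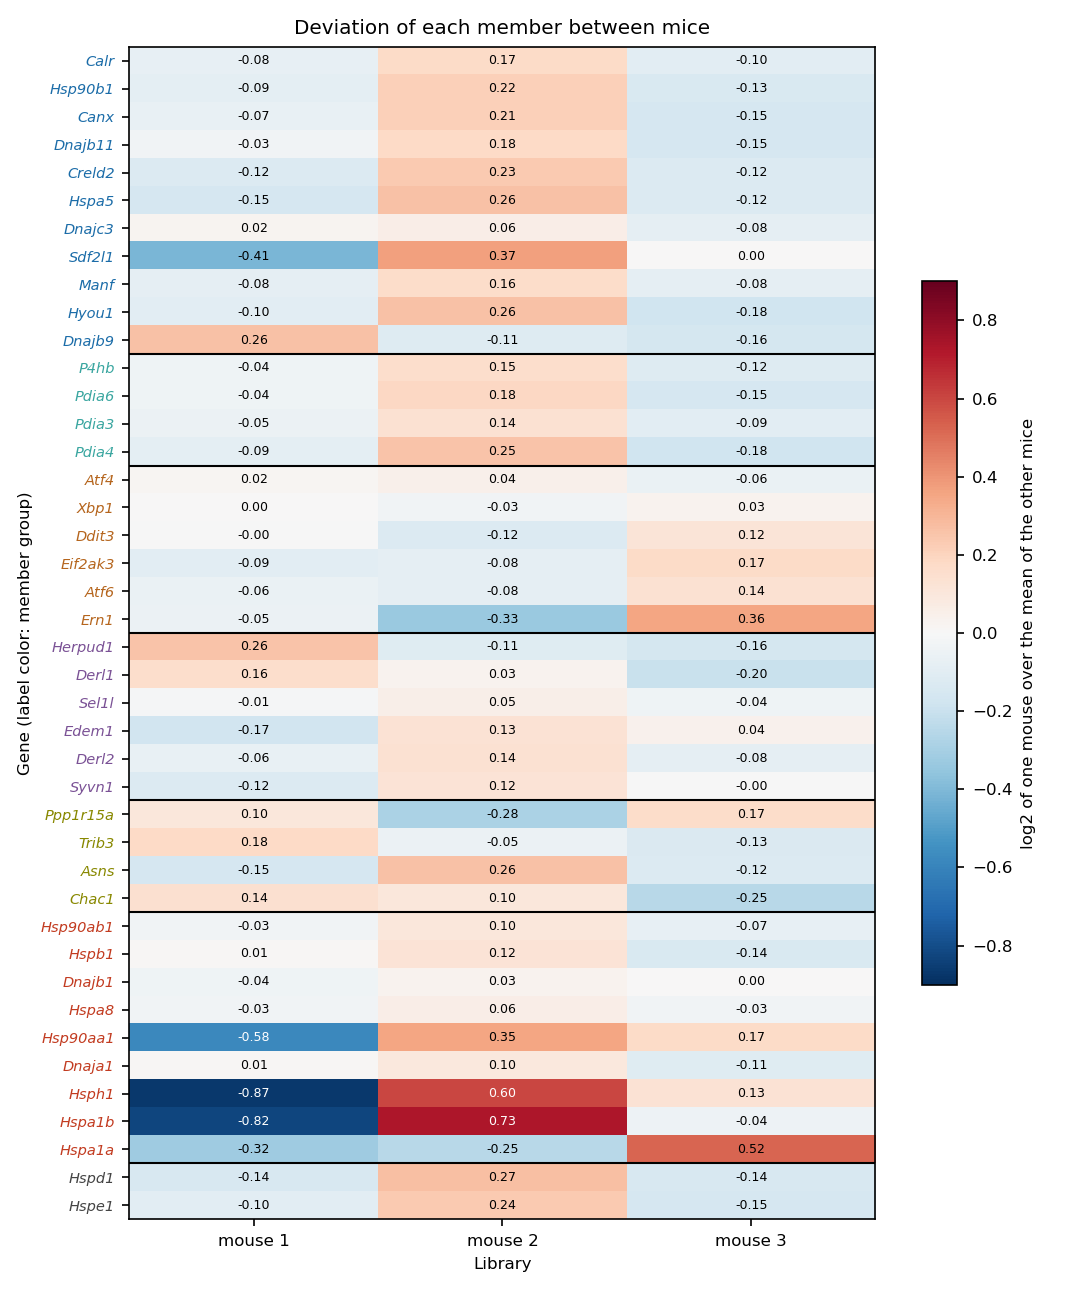
Log2 of the level of each member in one mouse over the mean of the other mice (color and printed value), with 1 row per gene and 1 column per library, and genes grouped by role. Mouse 2 is red for 14 of the 15 ER chaperone and disulfide isomerase genes, the sensors Ern1, Eif2ak3 and Atf6 are red in mouse 3, and Hsph1, Hspa1b and Hsp90aa1 are deep blue in mouse 1.

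The sensors of the unfolded protein response had another order between mice than the chaperones. Ern1 (IRE1) was at 360, 314 and 432 normalized counts in mice 1, 2 and 3, Eif2ak3 (PERK) at 585, 589 and 660, and Atf6 at 730, 723 and 800. All 3 were highest in mouse 3, as were 29.7% of all genes, and Ern1 was lowest in mouse 2. Of the 6 sensor and transcription factor genes, 5 were highest in mouse 3, Ddit3 (315, 298 and 333) and Xbp1 (928, 915 and 941) included, although Xbp1 differed between mice by no more than counting error, with a coefficient of variation of 1.40% where counting alone would give 3.28%. Among all genes, those with transcripts of at least 4898 bases had a median of 0.11 in mouse 3 on the log2 scale, and the transcripts of Ern1 and Atf6, at 7002 and 7246 bases, were among them. The part of transcript length in this order was not tested. Per kilobase, Ern1 (52.7 ± 8.49) and Atf6 (104 ± 5.88) were below the median of all genes and Eif2ak3 (135 ± 9.35) was close to it. Eif2ak3 exceeded Ern1 by 1.37 ± 0.15 on the log2 scale.

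The transcription factors downstream of the sensors were on ribosomes at high levels. Atf4, the factor favoured by PERK, had 542 ± 13.2 normalized counts per kilobase (rank 560), Xbp1, the target of IRE1, had 473 ± 6.62 (rank 886), and Ddit3, which encodes CHOP, had 354 ± 19.7. Atf4 was at 942, 954 and 910 normalized counts, with a coefficient of variation of 2.43%. Xbp1 exceeded Atf6 by 2.19 ± 0.06 and Atf4 exceeded Ddit3 by 0.61 ± 0.11 on the log2 scale per kilobase. These levels depended on the length used, most of all that of Ddit3. With the joined exons of all transcripts, Atf4 was at 397, Xbp1 at 247 and Ddit3 at 59.8 per kilobase. The joined exons of Ddit3 cover 5271 bases and its canonical transcript 890. Counts per gene do not separate spliced from unspliced Xbp1, and do not separate ribosomes on the short upstream reading frames of Atf4 and Ddit3 from those on the coding sequence.

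Genes of ER-associated degradation, which returns misfolded proteins to the cytosol, were at moderate levels. Herpud1, a membrane scaffold, stood highest at 434 ± 45.8 normalized counts per kilobase. Derl1 (287 ± 24.2) and Sel1l (227 ± 4.84), a channel component and the adaptor of the ligase, were intermediate with the mannosidase gene Edem1 (198 ± 14.2), and the channel component Derl2 (142 ± 8.12) and the ligase Syvn1 (141 ± 7.94) were lowest. Derl1 exceeded Derl2 by 1.02 ± 0.13 on the log2 scale. Sel1l was nearly the same in all mice, at 1420, 1463 and 1404 normalized counts, with a coefficient of variation of 2.14%. Edem1 was at 1067, 1230 and 1179, Derl2 at 579, 636 and 575, and Syvn1 at 461, 516 and 488, each highest in mouse 2 by less than 10%. Derl1 was at 982, 926 and 830, highest in mouse 1 like Herpud1.

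Of the ISR targets, Ppp1r15a (GADD34), which restores translation, stood at 272 ± 29.9 normalized counts per kilobase, the pseudokinase gene Trib3 at 251 ± 18.8, the asparagine synthetase gene Asns at 168 ± 18.1 and Chac1, a glutathione-degrading enzyme, at 30.3 ± 3.01. Each had its own order between mice. Trib3 was highest in mouse 1 (552, 497 and 479), Asns in mouse 2 (312, 377 and 317) and Ppp1r15a in mouse 3 (664, 554 and 683). Chac1 was too low to be compared, with 53, 52 and 44 normalized counts.

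The cytosolic heat shock proteins had the widest range. Hsp90ab1, the constitutive Hsp90, had 788 ± 34.1 normalized counts per kilobase, the highest of all members over the whole transcript. The small heat shock protein gene Hspb1 (302 ± 18.3), the J-domain gene Dnajb1 (287 ± 4.52) and the constitutive Hsp70 gene Hspa8 (260.0 ± 6.39) followed, and then the stress-inducible Hsp90aa1 (154 ± 34.0), Dnaja1 (128 ± 6.02), the Hsp110 gene Hsph1 (105 ± 34.4) and the stress-inducible Hsp70 genes Hspa1b (52.4 ± 18.4) and Hspa1a (36.5 ± 8.09). The constitutive forms were above the inducible ones in every mouse: Hsp90ab1 exceeded Hsp90aa1 by 2.38 ± 0.32 on the log2 scale, and Hspa8 exceeded Hspa1a by 2.85 ± 0.32. Dnaja1 was below Dnajb1 by 1.16 ± 0.06, and Hsp90b1 of the ER was below Hsp90ab1 of the cytosol by 0.68 ± 0.06.

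Reads with more than 1 match to the genome had been removed, which left parts of several chaperone transcripts without reads. Of all windows of 72 bases, the read length, along the transcript, 70.3% had an exact copy elsewhere for Hspa8, 67.2% for Hspb1, 66.6% for Hsp90aa1, 56.6% for Hspa1b and 54.9% for Hspa1a. The shares were 45.8% for Hspd1, 29.3% for Hspe1 and 21.7% for Dnaja1, whereas 32 of the 42 members had less than 5% of such windows and 27 had none. Counted over the windows without a copy, Hspa8 was at 875 instead of 260.0 normalized counts per kilobase, Hspb1 at 921 instead of 302, Hsp90aa1 at 462 instead of 154 and Hspd1 at 490.0 instead of 266. Hspa1b was at 121 instead of 52.4, about the median of all genes, and Hspa1a at 81.0 instead of 36.5. Hsp90ab1, at 805, was then below Hspb1 and Hspa8, and the median of the cytosolic group was 287 instead of 154. With that length Hspa8 was above Hspa5 by 1.18 on the log2 scale, where it had been below it by 0.57, and Hsp90ab1 was above Hsp90aa1 by 0.82. Corrected for the duplicate reads removed by the authors, Hsp90ab1 was at 1554 instead of 788 per kilobase. Hspa1a and Hspa1b are near-identical neighbours on chromosome 17, and the split of reads between them is uncertain.

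For all 15 ratios of related members the sign was the same in 3 of 3 mice. The exact sign-flip permutation test, two-sided, gave p = 0.25 for each (adjusted p = 0.25 over the 15), the smallest p that 3 mice allow. Over the whole transcript the smallest difference was that of the mitochondrial chaperonin: Hspd1 (266 ± 29.8) and its lid Hspe1 (254 ± 25.2 per kilobase), which share a promoter region and assemble into 1 complex, differed by 0.06 ± 0.03. Over windows without a copy they were at 490.0 and 359 per kilobase and differed by 0.44, more than Calr and Canx (0.35) or Pdia3 and Pdia6 (−0.18) on that length. Both were highest in mouse 2, at 602, 727 and 602 normalized counts for Hspd1 and at 188, 219 and 183 for Hspe1. Their genes overlap on opposite strands at their 5′ ends, and reads were counted by strand.

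Spread between mice was small for most members, as it was for most genes, and so did not set the members apart. Of the 38 members with a mean of at least 200 normalized counts, 2 had a coefficient of variation over 20%, and among all 9358 such genes 8% did. Both were stress-inducible chaperones of the cytosol. Hsph1 (chromosome 5, 149537752 to 149559841, minus strand) was at 409, 821 and 674 normalized counts, a coefficient of variation of 32.9% where counting alone would give 3.97%. Hsp90aa1 (chromosome 12, 110657039 to 110669162, minus strand) was at 386, 601 and 555 (22.0%). In both genes mouse 1 was low and the other mice lay closer together. Of the 38 members, 13 were lowest in mouse 1, as were 32.2% of all genes, and 3 by more than 10% of the next mouse, as were 13.3%. Of the 4 members with a lower mean, Hspa1b (97, 200 and 144) and Hspa1a (93, 96 and 136) also passed 20%, with Hspa1b lowest in mouse 1 as well. Hspa8 (613, 640 and 614), Dnajb1 (845, 872 and 860), Hsp90ab1 (1955, 2083 and 1920), Hspb1 (274, 289 and 256) and Dnaja1 (717, 747 and 680) differed far less, and each was highest in mouse 2. Without mouse 1, neither Hsph1 nor Hsp90aa1 passed 20% and Ern1 did (22.4%). Without mouse 3, Sdf2l1 (25.4%) passed beside both of them.

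**Figure D3:**
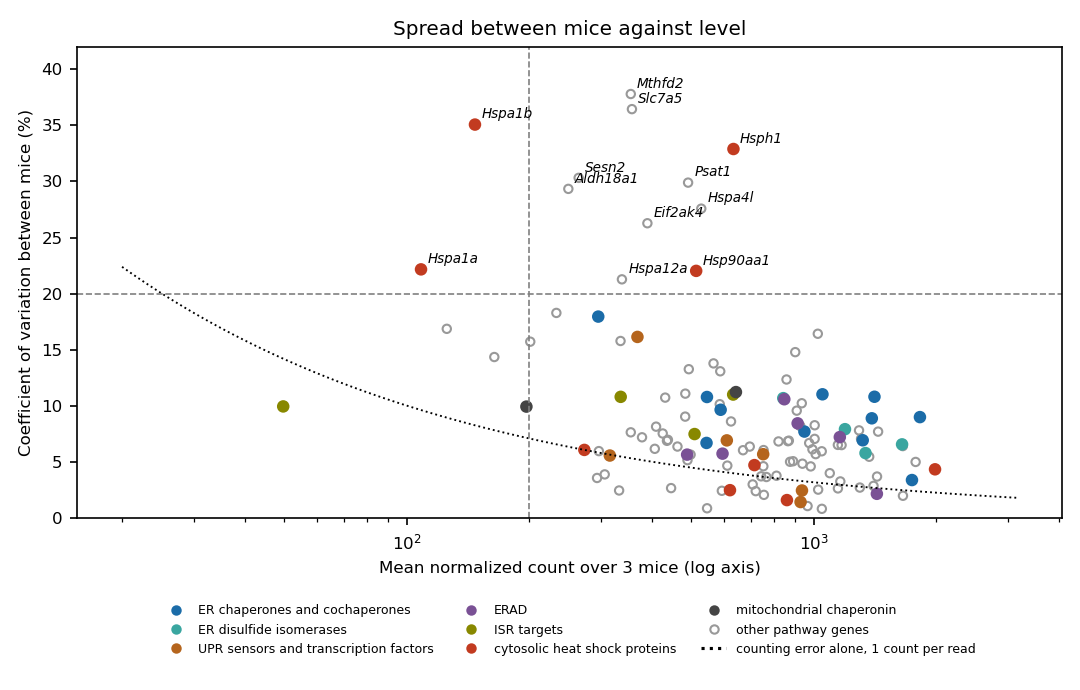
Coefficient of variation between 3 mice (vertical axis, percent) against the mean normalized count (horizontal log axis) for the members (filled, colored by role) and other genes of the pathways (open). Dashed lines mark 20% and a mean of 200, and the dotted curve is counting error alone; Hsph1 and Hsp90aa1 are the filled points past both lines.

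Other genes of the same pathways were read beside the members. In the cytosolic heat shock response list of 23 genes, 2 passed the 20% rule, near the share of 8% of all genes. Both were lowest in mouse 1: Hspa4l, an Hsp110 relative, at 367, 650 and 570 normalized counts, and Hspa12a, a distant Hsp70, at 256, 366 and 391. This list ran from 659 per kilobase for the cochaperone Bag1 to 55.5 for Hspa4l. Of the 23 genes, 6 were highest in mouse 1, where 38.1% of all genes were. In mouse 2, 13 were highest (32.2% of all genes), 7 of them by more than 10% (9.28% of all genes). Named after their values were seen, the small heat shock protein genes Cryab (438, 373 and 418), Hspb6 (528, 441 and 480) and Hspb7 (985, 925 and 814) were highest in mouse 1 and Hspb8 (393, 347 and 395) in mouse 3, and Hspa12b, known from endothelial cells, was at 521 per kilobase.

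Among the pathway lists, the median difference of mouse 1 was largest for genes of amino acid supply that ATF4 is known to induce. Of the 8 genes of this list, 6 had a mean of at least 200 and 5 of these passed 20%, where 8% of all genes did. Slc7a5, a transporter of large amino acids, was at 207, 437 and 428 normalized counts, Mthfd2, a mitochondrial folate enzyme, at 208, 471 and 386, and Psat1, of serine synthesis, at 350, 643 and 480. The stress protein gene Sesn2 was at 173, 297 and 323 and the proline synthesis gene Aldh18a1 at 166, 279 and 303. All 5 were lowest in mouse 1 by more than 10% of the next mouse, as were 13.3% of all genes. Shmt2, the highest of the list per kilobase (190.3), was at 409, 468 and 430, and the transporter gene Slc7a11 was the lowest, at 7, 8 and 5. The list had a median log2 difference of −0.82 in mouse 1, where all genes had 0.01. The ISR targets among the members had 0.10, a median over 3 genes: Asns at −0.15, Ppp1r15a at 0.10 and Trib3 at 0.18. Eif2ak4 (GCN2), the sensor of amino acid shortage, was lowest in mouse 1 as well, at 279, 410 and 481, whereas Atf4 itself was not. Eif2ak4 was the single gene of the 16 further regulators of these responses to pass 20%. It was also the lowest of them per kilobase (74.8), with Ddit4 the highest (572). Low values in mouse 1 were not particular to Eif2ak4. Of the 15 regulators with a mean of at least 200, 9 were lowest there, as were 32.2% of all genes. In 5 of the 15 this was by more than 10% of the next mouse, as in 13.3% of all genes.

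Several measures moved with mouse 1. The median log2 difference of mouse 1 was −0.07 for genes with transcripts of at least 4898 bases and 0.06 for those of at most 2100. It was −0.09 for genes at 115.4 or less normalized counts per kilobase and 0.05 for those at 319.6 or more. Hsph1 (6062 bases), Hspa4l (9527), Hspa12a (5836) and Eif2ak4 (5212) were in the longest group. Hsp90aa1 (3333) and the 5 amino acid genes over 20% (2101 to 3527) were not. The summed normalized counts of the fibroblast markers were 2865, 3415 and 3722 in mice 1, 2 and 3, those of the leukocyte markers 447, 681 and 681, and those of the mural markers 1227, 1701 and 1878, each sum lowest in mouse 1. The mural sum follows Acta2 (67, 128 and 210), Myh11 (31, 118 and 240) and Tagln (103, 206 and 338). By contrast, Kcnj8 (138, 85 and 119) was highest in mouse 1 and Rgs5 (542, 615 and 505) lowest in mouse 3. Of the 7 fibroblast markers, 5 were lowest in mouse 1, but Dcn (813, 579 and 1007) and Lum (458, 309 and 618) were lowest in mouse 2. The median log2 difference of the mural markers in mouse 1 was −0.84, as large as that of the amino acid genes. Of these markers, Cd79a was at 0 in mouse 3, and Cd3e was not listed. The sums of the endothelial markers were 25677, 24570 and 24662 and those of the cardiomyocyte markers 20679, 21339 and 24237. The cardiomyocyte sum follows the long transcripts Ttn and Ryr2, whereas 6 of the 10 markers were highest in mouse 1 and their median log2 difference there was 0.13. The Y-linked gene Ddx3y was at 1080, 3 and 1, and Xist at 4, 618 and 869, so that mouse 1 also differed from the others in sex-linked genes. The part of sex, other cell types, transcript length and level in low values of Hsph1, Hsp90aa1 and the amino acid genes was not tested. With 1 mouse on one side, sex and other cell types cannot be told apart.

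The remaining pathway lists varied less between mice. No gene of the further ER folding genes (15), ER-associated degradation genes (14), TRiC subunits (8) or mitochondrial genes (6) with a mean of at least 200 passed 20%. Ppib, a prolyl isomerase of the ER, was the highest of the ER folding genes at 744 per kilobase and Ero1b, an ER oxidase, the lowest at 38.6. Os9, a lectin of ER-associated degradation, was at 496 per kilobase, and Derl3, a relative of Derl1, was at 4, 3 and 6 normalized counts. The TRiC subunits lay between 377 for Cct4 and 545 for Cct5, and the mitochondrial genes between 155 for the cochaperone Grpel1 and 376 for Hspa9, the Hsp70 of the mitochondrion. The immediate early genes, which respond within minutes to handling and stress, summed to 6667, 5982 and 7682 normalized counts and were thus lowest in mouse 2, where the ER chaperones were highest. Of the 8 immediate early genes, 3 passed 20%, where 8% of all genes did. Fos was at 252, 220 and 652, Fosb at 204, 198 and 707, and Egr1 at 1254, 996 and 1525, all highest in mouse 3. The list ran from 97.7 per kilobase for Fosb to 627 for Dusp1.

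**Figure D4:**
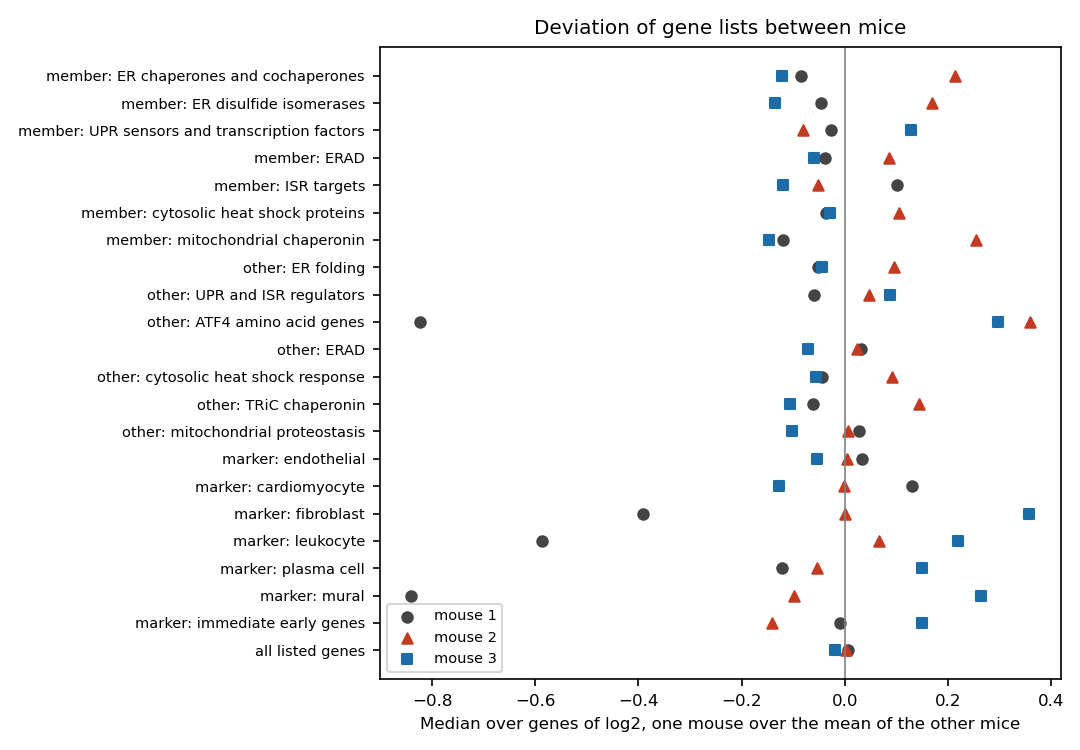
Median over the genes of each list of the log2 level in one mouse over the mean of the other mice (horizontal axis), with 1 symbol per mouse; lists marked member hold the 42 genes, lists marked other hold further pathway genes and lists marked marker hold cell type markers. Mouse 2 is at 0.21 for the ER chaperones and mouse 1 at −0.82 for the ATF4 amino acid genes, while all genes together lie near 0.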

How the data were processed

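Libraries of ribosome-bound RNA from 3 EC-RiboTag hearts were read from a single end over 72 bases. The authors used Trimmomatic 0.39, alignment with STAR 2.7.11a to mm39 (GRCm39), Picard 3.1.1 to remove duplicates, and counting by strand with featureCounts 2.0.4. Reads from ribosomal or mitochondrial RNA and reads with several matches were left out by them. The deposited values have the unit score: the authors scaled the counts with DESeq2 1.36.0 and rounded them, so that they are not raw counts. The worth of 1 read was estimated from whole numbers that never occur between 5 and 120 as 0.977, 1.06 and 0.961, which gives the depths. Counting errors given in the text cover counting only.

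The members and lists were chosen with earlier results of these data known. Levels per kilobase used the canonical transcript of GENCODE on GRCm39, newer than the annotation of the authors, cut to the deposited gene bounds, which shortened 32 members. Ranks are among genes whose mean reached 10. A pseudocount of 0.5 was used for log2 values, list medians of differences used genes whose mean reached 50, and ratios were compared by an exact permutation test that flips signs over mice. All members were named. Of other pathway lists, the highest and lowest gene per kilobase and each gene with over 20% variation at a mean of 200 or more were named, and of marker lists the highest and lowest. The labels call the samples biological replicates. Removing duplicates lowers high levels, and its correction assumed that reads start at random positions of a transcript. Alternatives were other scalings, lengths, minimum means and pseudocounts, the correction for duplicates and leaving out each mouse. Calculations were tested on simulated data. Tools were Python 3.11.15, numpy 2.4.6, pandas 2.3.3 and matplotlib 3.10.9.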

Additional observations from a re-analysis of the deposited data

How the results depend on the processing

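By more than 1 SD between mice, joined exons as length moved 38 of 43 values on member levels and the correction for duplicates 33, while other scalings and leaving out each mouse moved none of them. Per kilobase, the medians of the ER chaperones, disulfide isomerases, sensors and transcription factors, ER-associated degradation genes, ISR targets, cytosolic heat shock proteins and mitochondrial chaperonin were 261, 309, 89.2, 166, 119, 117 and 146 with the joined exons of all transcripts as length. With the full canonical transcript, chosen after seeing the data, the first 5 were 336, 361, 228, 203 and 156. Corrected for removed duplicates, these 5 were 492, 729, 292, 239 and 237, and the chaperonin was 301. Over windows without a copy, also chosen after seeing the data, the cytosolic proteins were at 287 and the chaperonin at 425. The log2 ratio of Hspa8 over Hspa5 turned to 1.18 over those windows, and that of Pdia3 over Pdia6 to 0.79 with joined exons and 0.025 with the full canonical transcript. The median difference of the ISR targets in mouse 2 turned from −0.05 to 0.0083 with the correction for duplicates. Members with over 20% variation numbered 4 at a mean of at least 100 (11.6% of all genes) and 4 with no minimum (35.9%), and 1 to 3 when each mouse was left out. The counts of members above the median of all genes ran from 34 to 38. No paired analysis was possible because there is a single group. Depth limits Chac1 and the inducible Hsp70 genes most.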
